A study of Mus musculus with 51 samples.

Results

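The 8 genes described here are immediate early genes: the zinc finger transcription factors Egr1, Egr2 and Egr3, the orphan nuclear receptors Nr4a1, Nr4a2 and Nr4a3, and the immediate early response genes Ier2 and Ier3. They were chosen by symbol from the 36528 gene identifiers of a count table of mouse lung RNA, and all 8 were found. Male C57/B6 mice received bleomycin or saline into the trachea, and at day 14 their lungs were sorted by flow cytometry into 4 fractions. The fractions were CD31+ (endothelial), CD45+ (leukocyte), EpCAM+ (epithelial) and triple-negative cells (negative for all 3 surface proteins). The bleomycin groups held 7 CD31+, 8 CD45+, 8 EpCAM+ and 8 triple-negative libraries, and each saline group held 5, which makes 51 libraries of total RNA. The age of the mice is not stated in the labels. The design text gives 8 bleomycin and 5 saline mice, so libraries of different fractions share mice, and the labels do not say which. Bleomycin is a DNA-damaging drug that injures the lung and is widely used as a model of pulmonary fibrosis.

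In mouse GRCm38 the genes lie on 8 chromosomes. Egr1 is at chr18:34861207-34864956, Egr2 at chr10:67534469-67542188 and Egr3 at chr14:70077317-70082613. Nr4a1 is at chr15:101253902-101274795, Nr4a2 at chr2:57106830-57124003 and Nr4a3 at chr4:48045078-48086447. Ier2 is at chr8:84661331-84662852 and Ier3 at chr17:35821713-35822911.

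Immediate early genes are switched on within minutes of a stimulus, without new protein synthesis, and their transcripts are short-lived. Growth factors, stress and calcium signals reach them through kinases that act on serum response factor and its ternary complex partners, which bind CArG boxes, and on CREB, which binds cAMP response elements (CRE). The Egr proteins bind GC-rich sites and are held in check by the co-repressors Nab1 and Nab2; the Nr4a receptors have no known natural ligand and bind the NBRE element as monomers or pair with retinoid X receptors. Tissue dissociation is also known to induce them.

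In the set of windows searched, RefSeq promoter windows (GRCm38.p6, 250 bases before to 50 after a start) were found for 5 of the 8 members. These were Egr2, Nr4a1, Nr4a2, Nr4a3 and Ier3. The set searched left out all windows on the chromosome of Egr1, so it could give none for Egr1. It also need not hold every RefSeq window of the other chromosomes. The lack of one for Egr1, Egr3 and Ier2 therefore does not show that RefSeq gives none. The 250 bases before a start are shown for each, because Egr2 departs from the other members below while the Nr4a genes fall together. Capitals mark CArG boxes, the CRE core TGACG and the Egr site GCGNGGGCG, each searched on both strands.
Egr2, chr10:67537619-67537868, plus strand: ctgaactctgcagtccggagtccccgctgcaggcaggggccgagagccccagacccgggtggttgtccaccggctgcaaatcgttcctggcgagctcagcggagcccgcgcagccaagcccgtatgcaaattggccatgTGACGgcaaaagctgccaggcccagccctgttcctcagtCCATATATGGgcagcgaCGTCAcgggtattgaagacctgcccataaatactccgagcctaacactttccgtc
Nr4a1, chr15:101266596-101266845, plus strand: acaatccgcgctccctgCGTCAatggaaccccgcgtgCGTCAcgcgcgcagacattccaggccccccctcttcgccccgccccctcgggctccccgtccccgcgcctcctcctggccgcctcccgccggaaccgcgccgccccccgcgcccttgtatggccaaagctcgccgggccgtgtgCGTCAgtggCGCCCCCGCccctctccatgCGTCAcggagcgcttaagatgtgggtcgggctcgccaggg
Nr4a3, chr4:48045055-48045304, plus strand: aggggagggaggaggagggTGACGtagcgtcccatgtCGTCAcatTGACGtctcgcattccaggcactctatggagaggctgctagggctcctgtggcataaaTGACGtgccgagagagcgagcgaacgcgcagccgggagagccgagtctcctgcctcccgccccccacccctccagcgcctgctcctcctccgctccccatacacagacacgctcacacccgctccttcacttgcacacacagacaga
Nr4a2, chr2:57124004-57124253, minus strand: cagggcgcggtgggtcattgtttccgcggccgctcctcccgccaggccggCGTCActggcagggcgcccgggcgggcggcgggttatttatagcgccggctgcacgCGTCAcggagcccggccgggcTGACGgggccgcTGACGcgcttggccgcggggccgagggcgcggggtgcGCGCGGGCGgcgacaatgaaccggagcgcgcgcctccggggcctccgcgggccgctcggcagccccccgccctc
Ier3, chr17:35821463-35821712, plus strand: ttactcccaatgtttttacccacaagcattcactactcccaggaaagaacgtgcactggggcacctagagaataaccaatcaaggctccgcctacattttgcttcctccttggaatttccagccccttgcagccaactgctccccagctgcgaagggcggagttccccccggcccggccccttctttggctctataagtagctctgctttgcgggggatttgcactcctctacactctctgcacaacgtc
The Egr2 window shown, which is 1 of 5 for the gene in the set searched, held a CArG box and 2 CRE cores. The Egr2 windows starting at chr10:67537620 and chr10:67537680 overlap it and held the same CArG box and CRE cores. The Egr2 window starting at chr10:67537316 held a CArG box and no CRE core, and that starting at chr10:67535249 held neither. The Nr4a1, Nr4a2 and Nr4a3 windows held 4 CRE cores each and no CArG box. Those of Nr4a1 and Nr4a2 also held 1 Egr site each, which overlaps a GC box (GGGCGG), and the Ier3 window held 1 GC box and no CArG box, CRE core or Egr site. Among the 32851 RefSeq windows of 300 bases in the set searched, 1.63% held a CArG box, 20.81% the CRE core, 5.55% the Egr site and 1.51% the NBRE AAAGGTCA. No member window held the NBRE. These are matches of letters, not binding sites.

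Each library held between 15692665 and 36514885 counts (median 22717142). Marker genes followed the sort. Summed endothelial markers were at 19450 to 23470 CPM (counts scaled to library size) in bleomycin and 24880 to 28380 CPM in saline CD31+ libraries, against at most 1293 CPM in any other fraction. Of the epithelial, leukocyte, endothelial and mesenchymal lists, the one matching the sort had the highest sum in every fraction. A bleomycin CD45+ library (Bleomycin_CD45_613) held 8436 CPM of mesenchymal markers, and a bleomycin CD31+ library (Bleomycin_CD31_621) held 9808 CPM of epithelial markers. Without either, every call on a member in its fraction held. A bleomycin triple-negative library (Bleomycin_Negative_638) stood apart from its group in several members, and results that rest on it are given with and without it.

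Together the members took a smaller share of the counts after bleomycin in every fraction. In triple-negative cells their share was 0.163 to 0.412% of the counts in bleomycin libraries and 0.944 to 1.26% in saline ones. In CD45+ cells it was 0.105 to 0.212% after bleomycin, against 0.500 to 0.597% after saline. In EpCAM+ cells it was 0.0537 to 0.127% after bleomycin and 0.189 to 0.376% after saline, and in CD31+ cells 0.0968 to 0.179% after bleomycin and 0.244 to 0.439% after saline. The groups did not overlap in any fraction. Of the 32 tests of 8 members in 4 fractions, 29 called the member lower in bleomycin, 1 called it higher and 2 made no call (edgeR quasi-likelihood test, Benjamini-Hochberg adjusted p under 0.05 over all genes tested in a fraction). Of all genes tested, 48.8% in CD31+, 55.3% in CD45+, 60.2% in EpCAM+ and 55.4% in triple-negative cells were called in either direction. The call upward was Egr2 in CD45+ cells. Egr1, Nr4a1, Nr4a2, Nr4a3, Ier2 and Ier3 were lower in all 4 fractions, although a single fit of all 51 libraries did not call Nr4a2 in CD31+ (log2 fold change -0.51, edgeR adjusted p = 0.0976) or Ier3 in EpCAM+ cells (-0.41, 0.109). In sorted bulk RNA, fewer cells of a type that makes a transcript and less of it in each cell cannot be told apart.

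**Figure D1:**
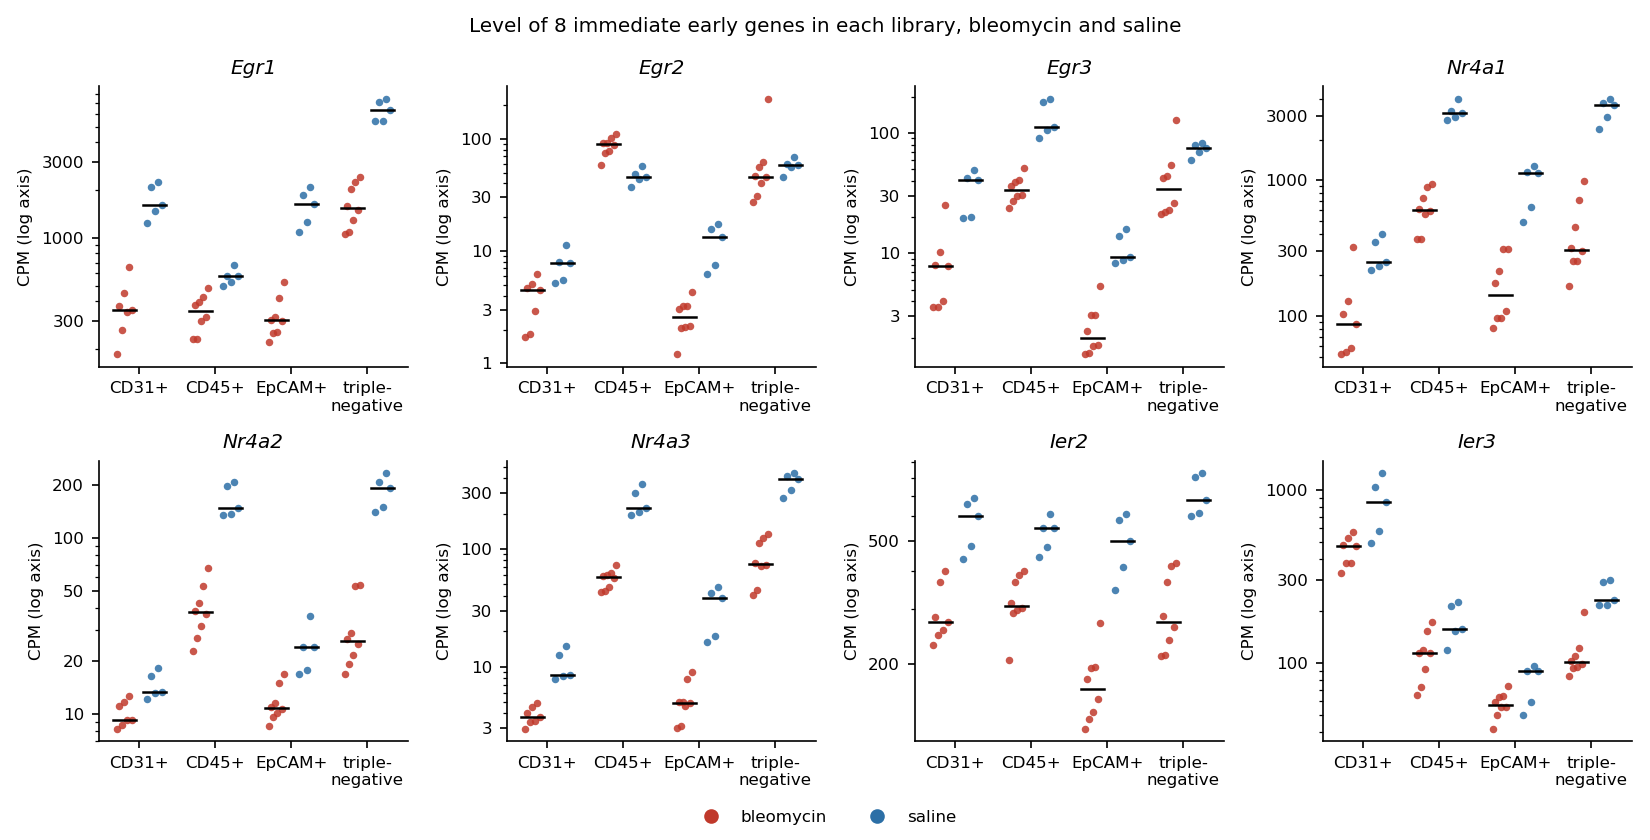
Level of each gene in CPM (log axis) in every library of the 4 fractions, with bleomycin left of saline; each point is a library and the black bar is the group median. All bleomycin libraries lie below all saline libraries in 22 of the 32 pairs of groups, and above them only for Egr2 in CD45+ cells. Of all genes tested, 13.3% in CD31+, 13.4% in CD45+, 17.3% in EpCAM+ and 14.6% in triple-negative cells lie wholly below. In CD45+ cells 18.0% lie wholly above.

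In CD31+ cells all 8 members were lower after bleomycin, where 24.6% of the 16075 genes tested were called lower. The median log2 fold change of the members was -1.15, against -0.01 over all genes tested. Egr1, the family's archetype and a regulator of vascular and matrix genes, had the largest fold change of the 8. It was at 187 CPM in the lowest, 354 in the median and 661.15 CPM in the highest of the 7 bleomycin libraries, and at 1242, 1468, 1612, 2089 and 2253 CPM in the 5 saline libraries. The groups did not overlap, and the log2 fold change was -2.20 ± 0.26 (SE, edgeR adjusted p = 3.79e-05). Egr3 had 3.56, 7.83 and 25.0 CPM as its lowest, median and highest bleomycin values, and 19.5, 20.1, 40.6, 41.9 and 49.0 CPM in saline libraries. A single bleomycin library (Bleomycin_CD31_622) reached the saline range, and the log2 fold change was -1.93 ± 0.48 (edgeR adjusted p = 0.00559). Egr2 was scarce, at 1.71 to 6.24 CPM after bleomycin and 5.18 to 11.4 CPM after saline. The ranges overlapped, with a log2 fold change of -0.97 ± 0.32 (edgeR adjusted p = 0.0240). That call is lost without Saline_CD31_651 (edgeR adjusted p = 0.0736).

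Among the receptors of CD31+ cells, Nr4a3 had the largest fold change, at a low level in both groups. It had 2.97, 3.72 and 4.89 CPM (lowest, median, highest) in bleomycin libraries and 7.84, 8.27, 8.56, 12.6 and 15.03 CPM in saline libraries. The groups did not overlap and the log2 fold change was -1.44 ± 0.18 (edgeR adjusted p = 4.29e-05). Nr4a1 was at 52.2 to 324 CPM (median 86.3) after bleomycin, against 217 to 400.5 CPM after saline. Bleomycin_CD31_622 was again the highest bleomycin library, and the log2 fold change was -1.33 ± 0.44 (edgeR adjusted p = 0.0242). Nr4a1 was no longer called when Bleomycin_CD31_623 (edgeR adjusted p = 0.0509), Saline_CD31_649 (0.0602) or Saline_CD31_651 (0.0518) was left out. Nr4a2 had the smallest fold change of the 8, at 8.25 to 12.7 CPM after bleomycin and 12.2 to 18.2 CPM after saline (log2 fold change -0.53 ± 0.13, edgeR adjusted p = 0.00501). Ier2, a nuclear protein of the early response, and Ier3, a regulator of cell survival, had log2 fold changes of -0.96 ± 0.16 and -0.91 ± 0.22 (edgeR adjusted p = 3.07e-04 and 0.00424). Over the members, 3 (Egr1, Nr4a3 and Ier2) had all bleomycin libraries below all saline ones, as had 13.3% of the genes tested. Markers of other cells moved in this fraction too. Of 5 platelet markers tested 4 were lower, among them Tubb1 (log2 fold change -4.77 ± 0.55), Ppbp (-4.30 ± 0.58) and Pf4 (-2.28 ± 0.46), and their sums overlapped at 10.9 to 19.6 CPM after bleomycin and 14.6 to 93.7 CPM after saline. No platelet marker was at 0 in every library, and their part in the members' values was not tested. Summed leukocyte markers were at 369 to 3968 CPM in bleomycin and 120 to 483 CPM in saline CD31+ libraries. With the mean log2 CPM of those markers as a covariate 5 members stayed called, and Egr3 (edgeR adjusted p = 0.0718), Nr4a1 (0.221) and Nr4a2 (0.0939) did not.

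In CD45+ cells the Egr genes split. Egr2, known for roles in T cell restraint, in macrophages and in Schwann cell myelination, was the member that rose. Its level was 58.9 CPM in the lowest, 90.0 in the median and 110.5 CPM in the highest of the 8 bleomycin libraries, against 36.9, 44.0, 45.2, 48.4 and 57.3 CPM in the 5 saline libraries. Every bleomycin library was above every saline library, as for 18.0% of the 16493 genes tested. The log2 fold change was 0.90 ± 0.14 (edgeR adjusted p = 7.94e-05), and 28.4% of the genes tested were called higher. Egr3 moved the other way. It had 23.6, 33.5 and 51.4 CPM as lowest, median and highest bleomycin values and 90.7, 106, 111, 180 and 192 CPM after saline. The groups did not overlap (log2 fold change -1.96 ± 0.21, edgeR adjusted p = 4.70e-06). Egr1 fell less than in the other fractions, to 233 to 489 CPM after bleomycin, against 501 to 673 CPM after saline (log2 fold change -0.71 ± 0.17, edgeR adjusted p = 0.00212).

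The opposite direction of Egr2 and Egr3 in CD45+ cells also shows as a ratio within each library, which no scaling between libraries can alter. There were 1.61 to 3.41 Egr2 counts per Egr3 count (median 2.63) in the 8 bleomycin libraries, and 0.229 to 0.516 (median 0.408) in the 5 saline libraries. Egr2 outnumbered Egr3 in every bleomycin CD45+ library and in none of the saline ones. The median of this ratio was higher after bleomycin in the other fractions too, where the groups overlapped. In triple-negative cells it was 0.828 to 2.705 after bleomycin (median 1.23) and 0.742 to 0.836 after saline (0.783). CD31+ cells had 0.168 to 1.55 (0.591) and 0.159 to 0.276 (0.2655). EpCAM+ cells had 0.605 to 1.77 (1.15) and 0.744 to 1.52 (1.07). Per 1000 Egr1 counts, CD45+ cells had 184 to 430 Egr2 counts after bleomycin and 73.7 to 85.1 after saline. In triple-negative cells there were 12.1 to 112 after bleomycin and 7.88 to 12.8 after saline, and in CD31+ cells 2.59 to 25.1 after bleomycin and 3.54 to 5.46 after saline. Both pairs of groups overlapped. In EpCAM+ cells the same ratio overlapped between the groups, at 4.71 to 13.7 Egr2 counts per 1000 Egr1 counts after bleomycin and 5.68 to 8.30 after saline.

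**Figure D2:**
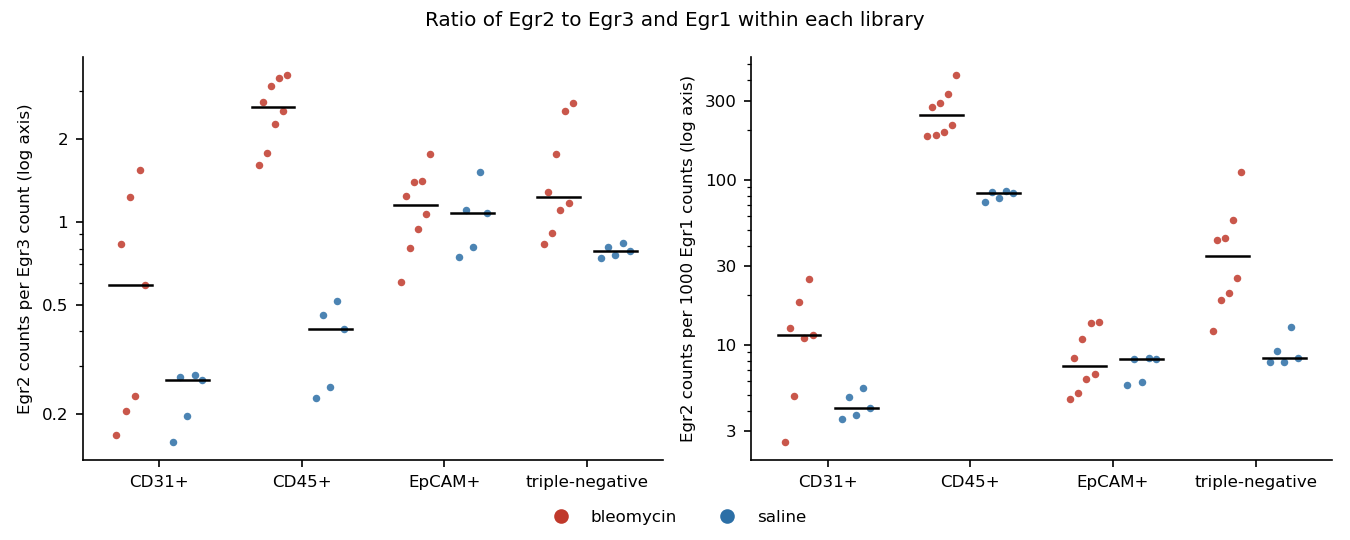
Counts of Egr2 per count of Egr3 (left) and per 1000 counts of Egr1 (right) in each library, on log axes, with bleomycin left of saline; each point is a library and the black bar is the group median. In CD45+ cells the bleomycin libraries lie at 1.61 to 3.41 Egr2 counts per Egr3 count, above the saline libraries at 0.229 to 0.516.

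All 3 Nr4a receptors fell in CD45+ cells. Nr4a1 (Nur77), induced by antigen receptor signals in lymphocytes and needed for patrolling monocytes in mice, was at 369, 605 and 937 CPM (lowest, median, highest) after bleomycin. In saline libraries it was at 2784, 2911, 3145, 3273 and 3999.6 CPM, without overlap (log2 fold change -2.34 ± 0.21, edgeR adjusted p = 8.80e-07). Nr4a3 was at 42.8 to 73.8 CPM after bleomycin and 194 to 357 CPM after saline (log2 fold change -2.20 ± 0.16, edgeR adjusted p = 1.01e-07). Nr4a2 was at 22.7 to 68.0 CPM after bleomycin and 135 to 209 CPM after saline (log2 fold change -2.04 ± 0.23, edgeR adjusted p = 7.29e-06). Ier2 and Ier3 had log2 fold changes of -0.71 ± 0.13 and -0.62 ± 0.23 (edgeR adjusted p = 3.99e-04 and 0.0339). The Ier3 groups overlapped, and its call is lost without any of 6 single libraries (Bleomycin_CD45_612, Bleomycin_CD45_615, Bleomycin_CD45_617, Saline_CD45_644, Saline_CD45_646 and Saline_CD45_648, edgeR adjusted p up to 0.0975). In all, 7 members were called lower, against 26.8% of the genes tested. For 6 of them the groups did not overlap, against 13.4%. The median log2 fold change of all 8 members, Egr2 included, was -1.34, against -0.004 over all genes tested.

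The make-up of the CD45+ fraction moved with these values. Summed markers of alveolar macrophages were at 2047 to 4036 CPM after bleomycin and 319 to 1079 CPM after saline. Those of monocyte-derived macrophages were at 15290 to 24490 CPM after bleomycin, against 2190 to 4540 CPM after saline. Lymphoid markers ran the other way, with T cell sums of 915 to 1252 CPM after bleomycin and 1437 to 2428 CPM after saline, and NK cell sums of 87.3 to 237 CPM after bleomycin and 539 to 724 CPM after saline. B cell sums were at 343 to 734 CPM after bleomycin and 787 to 1665 CPM after saline, without overlap, while neutrophil sums overlapped. The part of these shifts in the members' values was not tested. With the mean log2 CPM of endothelial markers as a covariate, Egr1 (edgeR adjusted p = 0.0716) and Ier3 (0.74) were no longer called and the other 6 members were. That covariate holds no macrophage or lymphoid markers, so it does not address the shifts above. It also moved with treatment, as 11 of the 12 endothelial markers were lower after bleomycin in this fraction.

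In EpCAM+ cells all 8 members were lower after bleomycin, where 28.9% of the 16902 genes tested were called lower. For 7 of them the groups did not overlap, as for 17.3% of the genes tested. Nr4a3 had the largest fold change of any member in this fraction. It was at 3.03, 4.92 and 8.93 CPM (lowest, median, highest) after bleomycin and at 16.2, 18.2, 38.1, 42.0 and 47.2 CPM after saline (log2 fold change -2.60 ± 0.31, edgeR adjusted p = 7.85e-06). Nr4a1 followed, at 80.9, 141 and 311 CPM after bleomycin and 490.4, 632.8, 1125, 1149 and 1283 CPM after saline (log2 fold change -2.43 ± 0.38, edgeR adjusted p = 1.06e-04). Nr4a2 was at 8.59 to 16.9 CPM after bleomycin and 17.0 to 36.2 CPM after saline (log2 fold change -1.03 ± 0.19, edgeR adjusted p = 3.23e-04).

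All 3 Egr genes fell in EpCAM+ cells without overlap. Egr1 was at 224, 304 and 527 CPM (lowest, median, highest) in bleomycin libraries and at 1097, 1262, 1626, 1874 and 2088 CPM in saline ones (log2 fold change -2.29 ± 0.21, edgeR adjusted p = 6.36e-07). Egr2, higher in CD45+ cells, was at 1.21, 2.61 and 4.31 CPM here after bleomycin and at 6.22, 7.51, 13.3, 15.6 and 17.2 CPM after saline (log2 fold change -2.15 ± 0.29, edgeR adjusted p = 1.64e-05). Egr3 was at 1.46 to 5.41 CPM after bleomycin and 8.36 to 16.1 CPM after saline (log2 fold change -2.16 ± 0.29, edgeR adjusted p = 1.99e-05). Ier2 fell to 123 to 271 CPM, against 348 to 611 CPM after saline (log2 fold change -1.50 ± 0.19, edgeR adjusted p = 1.34e-05). Ier3 had the highest adjusted p of the 8, with overlapping groups at 41.8 to 73.6 CPM after bleomycin and 50.1 to 96.1 CPM after saline (log2 fold change -0.41 ± 0.16, edgeR adjusted p = 0.0453). It is lost in 9 of the 13 fits that leave out a library (edgeR adjusted p up to 0.127). Saline_EpCAM_655 was the lowest of its group in all 8 members. The members' median log2 fold change was -2.15, against 0.02 over all genes tested. The make-up of the EpCAM+ fraction moved as well. Of 12 epithelial markers 4 were lower, among them the type II cell genes Sftpc (log2 fold change -0.93 ± 0.15) and Sftpb (-0.70 ± 0.12), and 7 were higher, among them the airway genes Scgb1a1 (1.52 ± 0.25) and Foxj1 (1.47 ± 0.26). Summed epithelial markers were at 90190 to 123200 CPM after bleomycin and 139800 to 158800 CPM after saline. Sftpc alone averaged 56850 CPM after bleomycin and 108000 CPM after saline, so that sum follows Sftpc closely. Of 12 endothelial markers 9 were lower, with overlapping sums of 168 to 297 CPM after bleomycin and 184 to 399 CPM after saline. None of these markers was at 0 in every library, and the part of these shifts in the members' values was not tested. Lyz2, which alveolar type II cells also make, was 98.1 to 99.7% of the summed leukocyte markers of this fraction after bleomycin and 99.8 to 99.9% after saline.

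**Figure D3:**
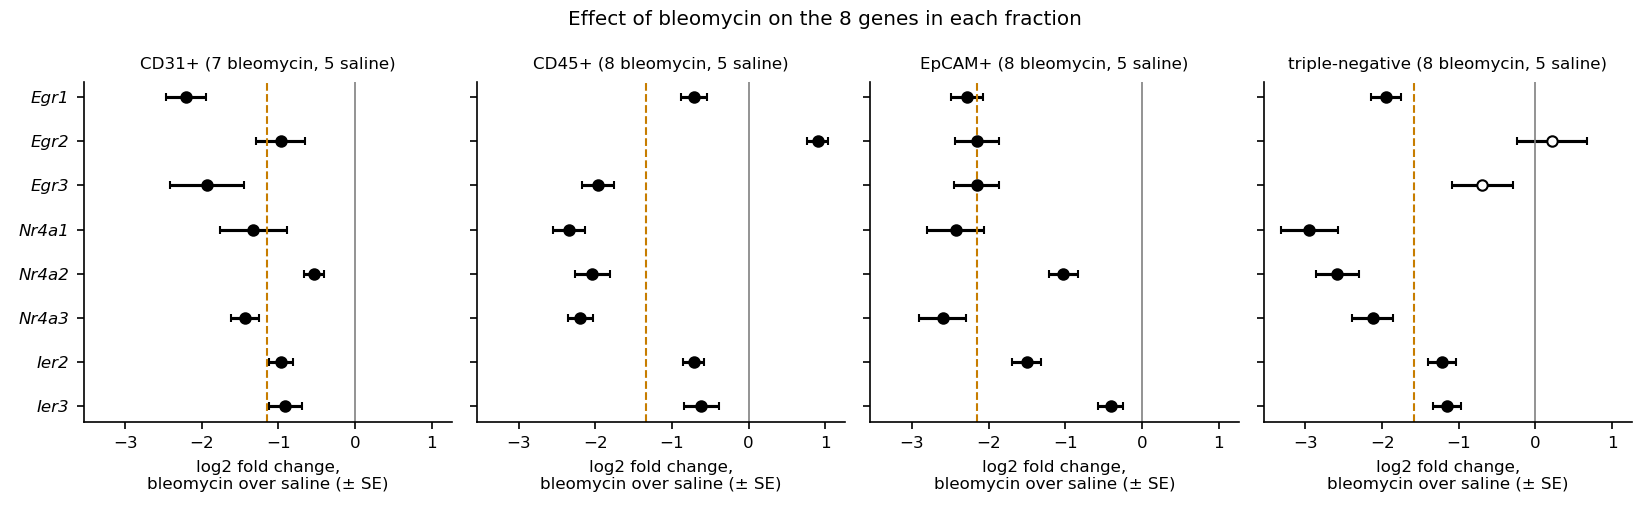
Log2 fold change of bleomycin over saline with its standard error for each gene in the 4 fractions; filled points passed an adjusted p of 0.05, open points did not, and the dashed line is the median of the 8 genes. The median runs from -1.15 in CD31+ to -2.15 in EpCAM+ cells, and Egr2 lies at 0.90 in CD45+ cells.

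Triple-negative cells, which include the fibroblasts, had the largest fold changes of Nr4a1 and Nr4a2 by estimate. In the fit of all libraries the Nr4a1 effect was not called different from CD45+ (edgeR adjusted p = 0.435) or EpCAM+ cells (0.497). Nor was the Nr4a2 effect called different from that in CD45+ cells (edgeR adjusted p = 0.226). Nr4a1 was at 167, 307 and 984 CPM (lowest, median, highest) in the 8 bleomycin libraries and at 2381, 2927, 3574, 3731 and 3979.5 CPM in the 5 saline ones. The groups did not overlap, and the log2 fold change of -2.95 ± 0.37 (edgeR adjusted p = 2.16e-05) was the largest of any member in any fraction. Nr4a2, known for its role in dopaminergic neurons, was at 16.8 to 54.2 CPM after bleomycin and 142 to 234 CPM after saline (log2 fold change -2.59 ± 0.28, edgeR adjusted p = 6.05e-06). Nr4a3 was at 40.5 to 133 CPM after bleomycin and 270 to 439.6 CPM after saline (log2 fold change -2.12 ± 0.27, edgeR adjusted p = 2.13e-05). Egr1, a target of TGF-beta signalling in fibroblasts, was at 1054, 1542 and 2426 CPM after bleomycin and at 5396, 5450, 6375, 7132 and 7474 CPM after saline. It did not overlap either (log2 fold change -1.95 ± 0.20, edgeR adjusted p = 2.86e-06). Ier2 and Ier3 had log2 fold changes of -1.22 ± 0.18 and -1.15 ± 0.18 (edgeR adjusted p = 6.78e-05 and 1.00e-04). These 6 members were the ones called lower, where 27.7% of the 16700 genes tested were, and all 6 had bleomycin libraries below all saline ones, as had 14.6% of the genes tested. The median over the 8 members was -1.58, against 0.01 over all genes tested. Markers of several cell types moved beside them. All 5 B cell markers were lower, with sums of 1.74 to 8.18 CPM after bleomycin and 25.4 to 76.3 CPM after saline. Of 12 endothelial markers 4 were lower, among them Tek (log2 fold change -1.86 ± 0.21), with overlapping sums of 429 to 637.4 CPM after bleomycin and 537 to 1269 CPM after saline. Of 12 mesenchymal markers 7 were higher, among them Col1a1 (1.34 ± 0.23), and 2 lower, Dcn (-1.67 ± 0.14) and Lum (-1.19 ± 0.18), and their sums were at 47020 to 77880 CPM after bleomycin and 28670 to 42760 CPM after saline. None of these markers was at 0 in every library, and their part in the members' values was not tested.

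Egr2 and Egr3 were not called in triple-negative cells, and Bleomycin_Negative_638 moves both estimates. Egr2 was at 27.2, 30.8, 40.3, 45.3, 46.6, 55.9, 62.2 and 227 CPM in the 8 bleomycin libraries, the last being Bleomycin_Negative_638, and at 45.5, 56.2, 58.5, 59.0 and 68.8 CPM after saline. The groups overlapped (log2 fold change 0.22 ± 0.45, edgeR adjusted p = 0.706), and without Bleomycin_Negative_638 the estimate turned to -0.38 (edgeR adjusted p = 0.0964). Egr3 was at 21.1 to 54.6 CPM in 7 bleomycin libraries and at 129 CPM in Bleomycin_Negative_638, against 60.0 to 82.3 CPM after saline. Its log2 fold change was -0.69 ± 0.39 (edgeR adjusted p = 0.151), and -1.13 without Bleomycin_Negative_638 (edgeR adjusted p = 0.00146). Bleomycin_Negative_638 was the highest bleomycin library in 5 members. Its summed leukocyte (195 CPM), epithelial (625.5 CPM) and heat shock (292 CPM) genes were each the lowest of the 8 bleomycin libraries. Other lists had their highest bleomycin sum in it. Among these were further immediate early genes (6716 CPM), MAP kinase phosphatases (1217 CPM), reported Egr targets and markers of monocyte-derived macrophages. Its summed AP-1 genes (4390 CPM) lay inside the bleomycin range of 3796 to 8215 CPM. The cause was not tested.

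The effect of bleomycin was then compared between fractions in a single fit of all 51 libraries. It differed for 4 of the 8 members, Egr1, Egr2, Nr4a2 and Ier2, where 64.3% of the 19841 genes tested differed (F test on 3 terms). Without Bleomycin_Negative_638 it differed for 6, with Nr4a1 (edgeR adjusted p = 0.0153) and Ier3 (0.0282) added. The fit takes libraries as independent although fractions share mice. Egr2 differed with an edgeR adjusted p of 7.86e-06. Its effect in CD45+ cells exceeded that in EpCAM+ cells by 2.998 ± 0.50 on the log2 scale (edgeR adjusted p = 4.28e-06) and that in CD31+ cells by 1.80 ± 0.50 (0.00365). Against triple-negative cells the difference was 0.65 ± 0.46 (edgeR adjusted p = 0.283), and without Bleomycin_Negative_638 it was 1.28 (0.00242). The effect in triple-negative cells exceeded that in EpCAM+ cells by 2.35 ± 0.50 (edgeR adjusted p = 2.57e-04). The CD31+ effect minus the EpCAM+ effect was 1.19 ± 0.53 (edgeR adjusted p = 0.0911), and without Bleomycin_Negative_638 it was called (0.0171). Without Bleomycin_Negative_638 the EpCAM+ effect minus the triple-negative effect was -1.74 (edgeR adjusted p = 0.000222). In this fit the fold change of Egr2 within CD45+ cells was 0.85 (edgeR adjusted p = 0.0304).

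Egr1 (edgeR adjusted p = 2.68e-04) fell less in CD45+ cells than in each other fraction. The effects differed by 1.41 ± 0.33 from CD31+, 1.53 ± 0.32 from EpCAM+ and 1.2 ± 0.32 from triple-negative cells on the log2 scale (edgeR adjusted p = 5.72e-04, 1.64e-04 and 0.00266). Nr4a2 (edgeR adjusted p = 2.54e-06) differed in 4 of 6 pairs. It fell less in CD31+ than in CD45+ cells by 1.58 ± 0.34 (edgeR adjusted p = 2.67e-04) and than in triple-negative cells by 2.09 ± 0.35 (9.32e-06). It also fell less in EpCAM+ than in CD45+ cells by 1.06 ± 0.34 (edgeR adjusted p = 0.0105) and than in triple-negative cells by 1.58 ± 0.34 (2.93e-04). The differences of 0.52 ± 0.35 between CD31+ and EpCAM+ (edgeR adjusted p = 0.295) and 0.52 ± 0.33 between CD45+ and triple-negative cells (0.226) were not called. Ier2 sat at the threshold (edgeR adjusted p = 0.0497) and was lost in 23 of the 51 fits that leave out a library. Nr4a3 (0.0504), Nr4a1 (0.0572), Egr3 (0.0600) and Ier3 (0.131) did not pass, which does not show that their effects were alike. In the 51 fits that leave out a library Nr4a3 passed in 14, Nr4a1 in 8, Egr3 in 6 and Ier3 in 1. Over the 6 pairs of fractions, 15 of 48 differences between effects were called, 3 of Egr1, 3 of Egr2, 2 of Egr3, 1 of Nr4a1, 4 of Nr4a2, 1 of Nr4a3, 1 of Ier2 and 0 of Ier3. The call of Nr4a1, between CD31+ and triple-negative cells, is lost without Bleomycin_CD31_622 (edgeR adjusted p = 0.0924), and that of Nr4a3, between CD31+ and EpCAM+ cells, without Saline_EpCAM_657 (0.0565). Of all genes, 38.2% were called between CD31+ and CD45+, 26.6% between CD31+ and EpCAM+ and 25.3% between CD31+ and triple-negative cells. The shares were 38.8% between CD45+ and EpCAM+, 37.4% between CD45+ and triple-negative, and 31.3% between EpCAM+ and triple-negative cells. Both differences of Egr3, triple-negative minus CD45+ (1.31 ± 0.52, edgeR adjusted p = 0.0445) and minus EpCAM+ (1.45 ± 0.56, 0.0437), were lost without Bleomycin_Negative_638 (edgeR adjusted p = 0.16 and 0.124). Of the 51 fits that leave out a library, 30 lost the first and 13 the second, and both were lost with no filter on low counts (edgeR adjusted p = 0.0705 and 0.0612).

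Levels were compared between fractions per kilobase of exon, with all 51 libraries scaled together. After bleomycin Egr2 was at 22.7 ± 4.34 CPM per kilobase in CD45+ and 21.1 ± 21 in triple-negative cells, then 1.15 ± 0.51 in CD31+ and 0.81 ± 0.30 in EpCAM+ cells (SD over 8 libraries, 7 in CD31+), and Bleomycin_Negative_638 was the highest of the triple-negative libraries. In saline it was at 12.6 ± 2.05 in CD45+ and 18.3 ± 2.69 in triple-negative cells, and neither step between these fractions was called (edgeR adjusted p = 0.739 after bleomycin and 0.169 after saline). Egr1 in bleomycin stayed highest in triple-negative cells at 393 ± 127 CPM per kilobase, while CD31+, EpCAM+ and CD45+ cells lay together at 84.9 ± 34.4, 74.9 ± 23.3 and 69.0 ± 18.1. Those 2 lower steps were not called (edgeR adjusted p = 0.429 and 0.592). Of the 24 steps between neighbouring fractions in each member's own order of means, 11 were called in bleomycin and 15 in saline. The shares of all genes given next are for fixed pairs of fractions, not for neighbours in a gene's own order. They are therefore no like measure for these counts. In bleomycin libraries 75.5% of genes differed between CD31+ and CD45+, 76.9% between CD31+ and EpCAM+, 68.5% between CD31+ and triple-negative, 80.7% between CD45+ and EpCAM+, 80.2% between CD45+ and triple-negative, and 74.6% between EpCAM+ and triple-negative cells. In saline libraries the shares for the same pairs were 72.5, 72.8, 67.7, 78.4, 79.0 and 73.1%. Within CD45+ cells Egr2 ranked the fifth highest of the members per kilobase after bleomycin, ahead of Nr4a2 (8.83 ± 3.26), Nr4a3 (8.30 ± 1.61) and Egr3 (7.03 ± 1.83), and it was the lowest of the 8 in saline.

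In saline libraries triple-negative cells ranked highest for Egr1, Egr2, Nr4a1, Nr4a2, Nr4a3 and Ier2. Egr1 was at 1534 ± 228 CPM per kilobase there (SD, n = 5), 385 ± 95.8 in CD31+, 367 ± 96.4 in EpCAM+ and 117 ± 14.2 in CD45+ cells. The step between CD31+ and EpCAM+ was not called (edgeR adjusted p = 0.822), and the other steps were. Nr4a1 was at 1022 ± 201 CPM per kilobase in triple-negative and 845 ± 116 in CD45+ cells, a step that was not called (edgeR adjusted p = 0.560), then 276 ± 103 in EpCAM+ and 82.2 ± 22.6 in CD31+ cells. Ier3 broke this order, at 741 ± 277 CPM per kilobase in CD31+ cells, 239.9 ± 39.9 in triple-negative, 141 ± 36.5 in CD45+ and 70.5 ± 19.3 in EpCAM+ cells, with every step called. Egr3 was highest in CD45+ cells, at 28.4 ± 9.55 CPM per kilobase against 18.0 ± 2.20 in triple-negative cells (edgeR adjusted p = 0.134). Ier2 was at 318 to 500.1 CPM per kilobase in the 4 fractions, with no step called.

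Beyond the differences between groups, the members varied together from library to library. With group means removed from log2 CPM, all 28 pairs of members had a positive Pearson's r over the 51 libraries, with a median of 0.482. The libraries of a pair share depth and preparation, so these values describe and are not tests. Egr1 and Ier2 were closest (r = 0.879), then Egr3 and Nr4a1 (0.792) and Nr4a1 and Ier2 (0.752). The lowest values were those of Egr2 with Egr1 (0.136) and with Nr4a3 (0.178), and the closest member to Egr2 was Ier3 (0.609). Within a fraction some pairs ran opposite, as Egr1 and Nr4a3 did over the 13 CD45+ libraries (-0.541). Without Bleomycin_Negative_638 the median was 0.414 and the r of Egr2 was 0.0588 with Egr1 and 0.521 with Ier3. Among all 19841 genes, the 3 most like Egr1 were Ier2, Fos (0.873) and Zfp36 (0.873), and those most like Ier2 were Junb (0.920), Zfp36 (0.899) and Ppp1r15a (0.889). For Nr4a1 they were Btg2 (0.856), Hes1 (0.799) and Egr3 (0.792), and for Egr3 Nr4a1, Hes1 (0.755) and Btg2 (0.717). For Nr4a2 they were Btg2 (0.755), Spty2d1 (0.738) and Nr4a1 (0.737), and for Nr4a3 Tob2 (0.668), Nr4a2 (0.659) and Ddx3x (0.645). For Ier3 they were Phlda1 (0.739), Csrnp1 (0.685) and Tctex1d4 (0.681). Without Bleomycin_Negative_638 the closest gene changed for Egr1, to Fos (0.907), and for Nr4a2, to Mafk (0.722), and was the same for the other 6 members.

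**Figure D4:**
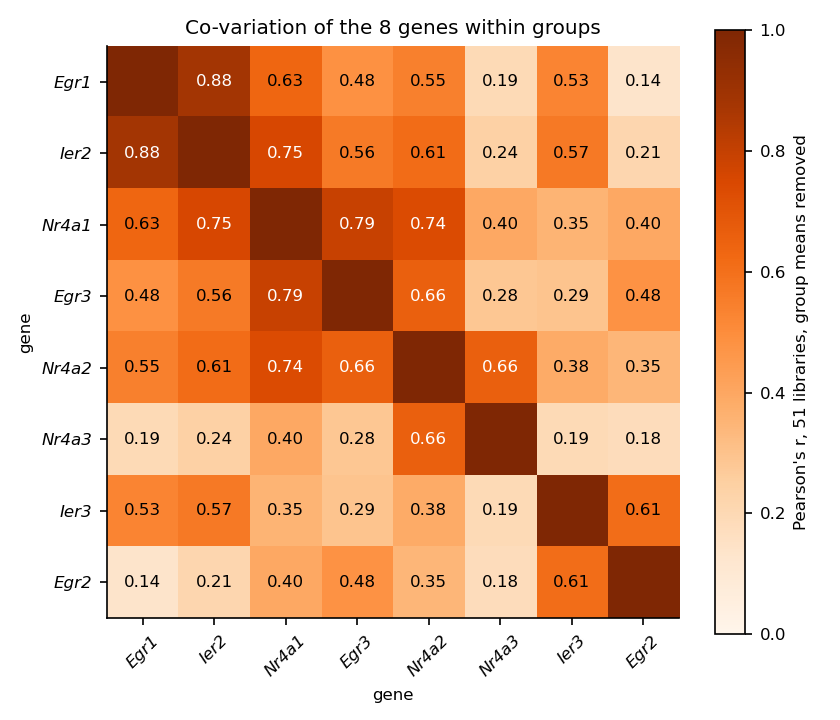
Pearson's r between each pair of the 8 genes over 51 libraries after the mean of each of the 8 groups was removed from log2 CPM; darker cells are higher. Egr1 and Ier2 reach 0.88, and Egr2 has its lowest value with Egr1 at 0.14 and its highest with Ier3 at 0.61.

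For Egr2 the most similar genes were Dusp5 (0.754), Zc3h12a (0.712) and Bhlhe40 (0.702), and without Bleomycin_Negative_638 Dusp5 (0.695) and Zc3h12a (0.691) still led. Dusp5 is a phosphatase of ERK kinases, Zc3h12a a ribonuclease that degrades inflammatory transcripts and Bhlhe40 a transcriptional repressor. In CD45+ cells, where Egr2 rose, Dusp5 averaged 49.5 CPM after bleomycin and 182 CPM after saline (log2 fold change -1.88 ± 0.17, edgeR adjusted p = 9.16e-07).

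Other genes of the early response were read from lists of related genes. Of all genes tested, 24.2% were called higher in CD31+, 28.4% in CD45+, 31.2% in EpCAM+ and 27.7% in triple-negative cells. In the AP-1 list, partners that form dimers on TPA response elements, 7 of 8 genes were lower in CD31+ cells, 7 in CD45+, 6 in EpCAM+ and all 8 in triple-negative cells, and none was higher. Atf3 was among the AP-1 genes that fell most, with log2 fold changes of -2.46 ± 0.28 in CD31+, -2.34 ± 0.26 in EpCAM+ and -3.33 ± 0.30 in triple-negative cells (edgeR adjusted p = 2.42e-05, 4.56e-06 and 1.36e-06). Fosb had log2 fold changes of -1.94 in CD31+ and -2.19 in triple-negative cells, and Fosl2 one of -1.64 in CD45+ cells, all called lower. All 3 ZFP36 genes, whose proteins speed the decay of AU-rich transcripts, were lower in CD31+, EpCAM+ and triple-negative cells and 2 in CD45+ cells, with Zfp36 at -2.23 ± 0.21 in triple-negative cells (edgeR adjusted p = 1.18e-06).

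A list of 22 further immediate early genes held calls in both directions. In CD31+ cells 7 were lower and 3 higher. The counts were 16 lower and 2 higher in CD45+ cells, 15 lower and 1 higher in EpCAM+ cells, and 18 lower and 2 higher in triple-negative cells. Nfkbiz, an atypical inhibitor of NF-kB family factors, fell in CD31+ (-2.02 ± 0.23), CD45+ (-1.55 ± 0.11) and EpCAM+ cells (-1.95 ± 0.17). The growth regulator Myc rose in CD31+ cells, to a mean of 33.5 CPM, against 9.63 CPM in saline (log2 fold change 1.80 ± 0.19, edgeR adjusted p = 1.31e-05). Sgk1, a kinase induced by glucocorticoids, rose in CD45+ cells (1.96 ± 0.11, edgeR adjusted p = 6.55e-09). Of 7 MAP kinase phosphatases, 2 were lower and 3 higher in CD31+ cells, and 4 lower and 2 higher in triple-negative cells. CD45+ cells had 6 lower, EpCAM+ cells had 5, and neither had any higher. Dusp2 was higher in CD31+ cells (2.29 ± 0.40) and lower in triple-negative (-2.30 ± 0.25) and EpCAM+ cells (-1.375 ± 0.257). Over these 4 lists of 40 genes the median log2 fold change was -0.40 in CD31+, -0.80 in CD45+, -0.94 in EpCAM+ and -1.22 in triple-negative cells. Over all genes tested the medians were -0.01, -0.004, 0.02 and 0.01 in these fractions, and 24.6, 26.8, 28.9 and 27.7% were called lower.

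**Figure D5:**
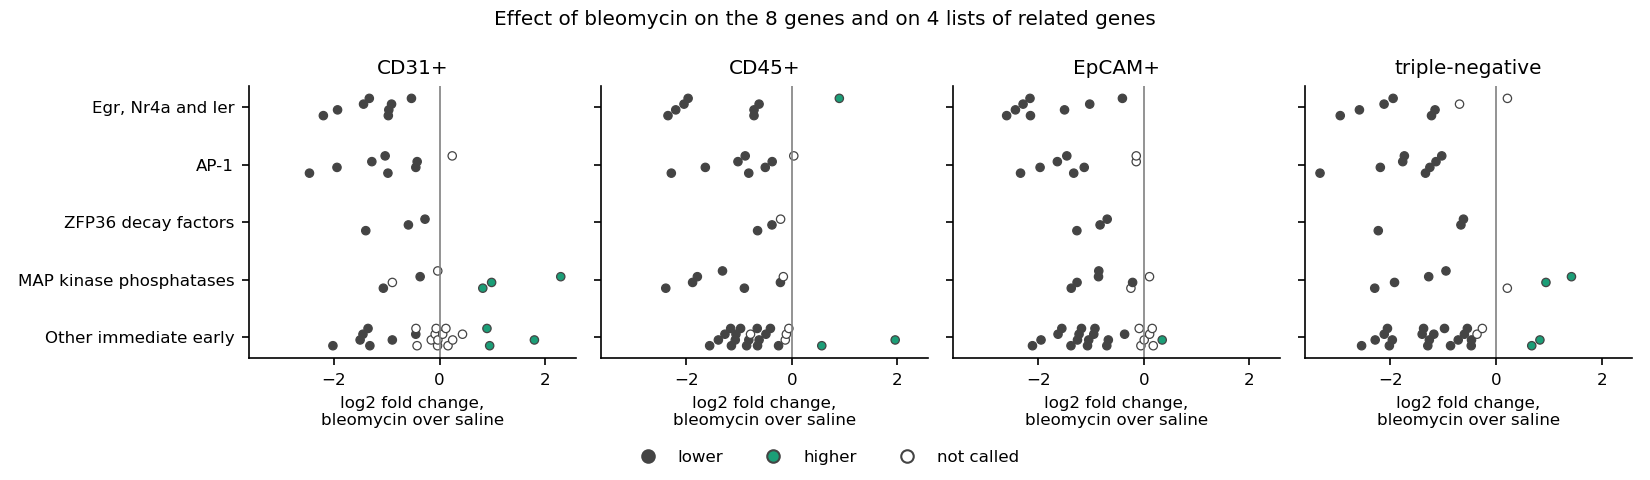
Log2 fold change of bleomycin over saline for the 8 genes and for 4 lists of related genes in each fraction; each point is a gene, and its fill shows the call. AP-1 genes are lower or not called in every fraction, while 3 of 7 MAP kinase phosphatases are higher in CD31+ cells.

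Direct partners of the members did not move one way. Nab2, a co-repressor that Egr proteins recruit and that Egr1 itself induces, was higher in triple-negative (0.78 ± 0.10), CD31+ (0.43 ± 0.16) and CD45+ cells (0.39 ± 0.08) on the log2 scale (edgeR adjusted p = 1.51e-05, 0.0382 and 5.22e-04). Nab1 was higher in CD31+ (0.42 ± 0.05) and lower in CD45+ (-0.36 ± 0.09) and triple-negative cells (-0.47 ± 0.06). Egr4, the remaining family member, was near the limit of detection, at a mean of 0.50 CPM after bleomycin and 1.19 CPM after saline in EpCAM+ cells (log2 fold change -1.21 ± 0.45, edgeR adjusted p = 0.0293). Of 6 genes for serum response factor and its cofactors, 2 were lower in CD31+, 2 in CD45+, 5 in EpCAM+ and 1 in triple-negative cells, while 2 were higher in CD45+, 1 in triple-negative and none in the other fractions. Elk4, a ternary complex factor, had log2 fold changes of -1.01 in CD45+, -0.51 in CD31+ and -0.27 in EpCAM+ cells. Rxra, a dimer partner of Nr4a1 and Nr4a2, was at 212 CPM after bleomycin and 78.3 CPM after saline in CD45+ cells (log2 fold change 1.44 ± 0.09, edgeR adjusted p = 1.43e-08). Rxra was lower in CD31+ (-0.55 ± 0.05) and triple-negative cells (-0.20 ± 0.07).

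Genes reported as Egr targets and heat shock genes were mixed. Of 5 reported Egr targets, CD31+ cells had 1 lower and 1 higher, CD45+ cells 3 lower and 1 higher, EpCAM+ cells 1 lower and 3 higher, and triple-negative cells 2 lower and 1 higher. Pdgfa, a growth factor chain for mesenchymal cells, rose in CD31+ (0.50 ± 0.11), CD45+ (1.84 ± 0.23), EpCAM+ (0.27 ± 0.07) and triple-negative cells (0.86 ± 0.09). Tissue factor F3 rose in EpCAM+ cells (1.67 ± 0.27) and fell in triple-negative cells (-1.41 ± 0.13), and Fasl, the death ligand of T and NK cells, fell in CD45+ cells (-2.29 ± 0.19, edgeR adjusted p = 2.06e-07). Of 8 heat shock genes, 3 were lower in CD31+, 2 in CD45+, 0 in EpCAM+ and 3 in triple-negative cells, and 1 was higher in each fraction. The near-identical Hspa1a and Hspa1b, between which reads can be split, had log2 fold changes of -1.88 ± 0.49 and -1.82 ± 0.52 in CD31+ cells, -1.99 ± 0.50 and -1.66 ± 0.54 in CD45+ cells, and -1.48 ± 0.38 and -1.45 ± 0.39 in triple-negative cells. Summed heat shock genes were at 235 to 750 CPM after bleomycin and 805 to 972 CPM after saline in CD31+ cells, without overlap, and the groups overlapped in the other fractions. Mitochondrial transcripts took 0.486 to 0.689% of the counts after bleomycin and 0.312 to 0.401% after saline in CD31+ cells. In triple-negative cells they took 0.512 to 1.23% after bleomycin and 0.260 to 0.474% after saline. The groups overlapped in CD45+ cells, at 0.487 to 0.615% after bleomycin and 0.415 to 0.495% after saline. They also overlapped in EpCAM+ cells, at 1.18 to 2.40% after bleomycin (median 1.73%) and 1.41 to 2.14% after saline (median 1.87%). The part of these shifts in the members' values was not tested.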

How the data were processed

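Total RNA of sorted mouse lung cells was sequenced after TruSeq stranded total RNA library preparation, per the labels' protocols. The authors deposited raw read counts per Entrez gene for 51 libraries, and the submitters' processing notes name the GRCm38 build; the aligner, counter, annotation and strand setting are not given in the sources used here. The table matched all 51 single-library files count for count. Entrez identifiers were matched to RefSeq symbols (31049 of 36528; the rest held 1.63% of the counts). Libraries were grouped by their titles and held 15692665 to 36514885 counts each, so members with few counts (Egr2 down to 25 in a library) are measured least precisely.

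Each fraction was tested apart with edgeR 4.0.16 (R 4.3.3): filterByExpr, TMM scaling, robust quasi-likelihood F test, Benjamini-Hochberg adjustment over all genes of the fraction, adjusted p under 0.05, and SE taken as the fold change divided by the root of F. CPM values use the scaling of their fraction. Differences between fractions, orders of levels and correlations (log2 CPM, prior count 2) come from a fit of all 51 libraries with 8 groups. Levels per kilobase use GENCODE M21 exon lengths. The pipeline was tested on simulated data.

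The members, the 20 gene lists and the tests were chosen with earlier results of these data known. All 8 members are named in each comparison. Of each list, the genes named come from the 2 largest rises and 2 largest falls past the threshold in a fraction, with some exceptions. Pdgfa and Sftpb in EpCAM+ cells and Pf4 in CD31+ cells are named outside that rule. Likeness names the 3 genes with the highest r. Of 172 list genes 3 were not found, as older names of genes already listed. The design text gives 8 bleomycin and 5 saline mice, so the libraries of a group are taken as separate mice. Alternatives were RLE scaling, DESeq2 1.42.0, no filter, a filter of 1 CPM in 5 libraries, the contrast from the fit of 51 libraries, leaving out each library, the mean log2 CPM of leukocyte markers (endothelial in CD45+ cells) as a covariate, and the column block of the deposited table (26 and 25 columns, whose meaning the headers do not state).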

Additional observations from a re-analysis of the deposited data

Results flagged for a closer look

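In 6 of 64 member and group combinations a library lay apart from the rest of its group by Dixon's test at the 95% level. For normal values and independent tests chance would give about 1 in 20. Here the test ran on CPM without logs, and members vary together within a library, so that rate is not a like measure. In triple-negative cells Bleomycin_Negative_638 was high in 3 of them, with 227 CPM of Egr2, 129 CPM of Egr3 and 197 CPM of Ier3. In CD31+ cells Bleomycin_CD31_622 was high in 2, with 25.0 CPM of Egr3 and 324 CPM of Nr4a1. In EpCAM+ cells Bleomycin_EpCAM_634 was high in Egr3 at 5.41 CPM.

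The effect of bleomycin differed between the 4 fractions for 4 members in the test of the difference itself: Egr1 (edgeR adjusted p = 2.68e-04), Egr2 (7.86e-06), Nr4a2 (2.54e-06) and Ier2 (0.0497). In the same test 64.3% of all 19841 genes differed.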

How the results depend on the processing

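Of the 32 results for a member in a fraction, all 32 kept their direction and call with RLE scaling, DESeq2 and the stricter filter, 29 with no filter, 31 with the column block as a covariate, 30 in the fit of all 51 libraries (Nr4a2 in CD31+ and Ier3 in EpCAM+ cells were not called, which leaves 7 members called in each) and 24 with a marker covariate. RLE scaling moved the median of all genes by less than 0.1 in each fraction. Leaving out each library in turn kept 26 of them; the exceptions are Egr2 and Nr4a1 in CD31+, Ier3 in CD45+ and EpCAM+, and Egr2 and Egr3 in triple-negative cells. Across those fits the members called ranged from 6 to 8 in CD31+, 7 to 8 in CD45+ and EpCAM+, and 6 to 7 in triple-negative cells, those whose effect differs between fractions from 3 to 6, and the steps between neighbouring fractions from 11 to 13 in bleomycin and 14 to 17 in saline. In CD31+ cells 5 members were called, all lower, with the leukocyte covariate, and 3, all lower, among the libraries of the second column block alone, where 4 bleomycin and 2 saline libraries remain. Egr2 in triple-negative cells, not called, turned to -0.0093 with the leukocyte covariate, -0.47 in the first column block alone and -0.38 without Bleomycin_Negative_638 (range -0.38 to 0.33 over the fits that leave out a library); the cause was not tested. The blocks were split after seeing the data, and so was the leaving out of Bleomycin_Negative_638 for correlations. Ier2 missed the threshold for a difference between fractions with RLE scaling (edgeR adjusted p = 0.0517) and with no filter (0.0731). No paired analysis was possible because the replicate numbers in the labels are unique to a library. Scarce members limit precision: Egr2 and Egr3 in EpCAM+ and CD31+ cells rest on few counts.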
